A study of Mus musculus with 4 samples.

Results

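The 6 genes Nphs1, Podxl, Wt1, Synpo, Cdkn1c and Ptpro, all known for high expression in podocytes, were followed in normal and ischemic mouse kidney sections. They were chosen by name, with no measured value in the rule, and are 6 of the 32285 genes counted. All 6 were detected in every section and passed the filter on low counts in every main comparison. The study used Visium, in which a tissue section lies on an array of spots whose barcoded primers capture its RNA and tag every molecule with a unique molecular identifier (UMI), to ask where T cells lie in normal and injured kidneys. Of its sections, 4 were analysed here, 2 labelled normal control and 2 labelled ischemic reperfusion injury. All came from left kidneys of male WT C57BL/6J mice aged 7 to 8 weeks. In the ischemic group both renal pedicles had been clamped for 30 min and kidneys were taken 24 h after ischemia; the control mice are labelled only as normal, and no sham operation is described for them. Kidneys were decapsulated, snap-frozen, embedded and cut at 10 µm. The mouse behind each section is not given, and the study describes 2 mice per condition with 2 technical replicates each, so p-values measure only the spread between these sections, which may be technical. A section is the unit of every test, and a spot holds several cells.

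Podocytes are the epithelial cells that cover the outside of the glomerular capillaries, and glomeruli lie in the cortex, not in the medulla. Their interdigitating foot processes are bridged by the slit diaphragm, a cell junction that forms the last layer of the filtration barrier. The cells are postmitotic and keep their shape through an actin cytoskeleton anchored to the slit diaphragm and to the basement membrane. Nphs1 encodes nephrin, the transmembrane adhesion protein of the slit diaphragm. Podxl encodes podocalyxin, a negatively charged sialomucin of the apical surface that vascular endothelium also makes, and Ptpro encodes a receptor tyrosine phosphatase of the apical membrane. Synpo encodes synaptopodin, an actin-binding protein of foot processes. Wt1 encodes a zinc finger transcription factor needed for podocyte development and maintenance, and Cdkn1c encodes the cyclin-dependent kinase inhibitor p57, of the Cip/Kip family.

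In the GENCODE annotation of GRCm38, Nphs1 (ENSMUSG00000006649) lies on the plus strand at chr7:30458315-30487223 and Ptpro (ENSMUSG00000030223) on the plus strand at chr6:137252319-137463233. Podxl (ENSMUSG00000025608) lies on the minus strand at chr6:31519488-31563981, and Wt1 (ENSMUSG00000016458) on the plus strand at chr2:105126529-105173616. Cdkn1c (ENSMUSG00000037664) lies on the minus strand at chr7:143458339-143461050. The antisense genes Nphs1os, within Nphs1, and Gm44732, within Cdkn1c, had 0 counts in all 4 sections, and the intronic gene Gm44258 within Ptpro had 1 count in all.

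In whole sections and in podocyte-rich spots, both given below, Nphs1, Ptpro and Cdkn1c were called lower. The promoters of Nphs1 and Ptpro are shown because these genes also had a sequence to print, and Cdkn1c is named only. They are the 250 bases before the RefSeq start on GRCm38.p6, both on the plus strand, at chr7:30459808-30460057 for Nphs1 and chr6:137252049-137252298 for Ptpro, and both are upstream of the RefSeq transcript. The Nphs1 window lies within the longer GENCODE gene, and the Ptpro window ends before the GENCODE gene. Podxl, Wt1 and Synpo are also named only. Capitals mark matches, on either strand, to GNGTGGGNG, a zinc finger motif of the Wt1 and Egr1 kind, and to CANNTG, the E-box, which did not overlap.
Nphs1: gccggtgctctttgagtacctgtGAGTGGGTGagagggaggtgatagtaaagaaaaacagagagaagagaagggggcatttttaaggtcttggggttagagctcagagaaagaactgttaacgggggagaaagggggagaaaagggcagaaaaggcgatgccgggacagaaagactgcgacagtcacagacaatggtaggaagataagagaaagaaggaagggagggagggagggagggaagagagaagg
Ptpro: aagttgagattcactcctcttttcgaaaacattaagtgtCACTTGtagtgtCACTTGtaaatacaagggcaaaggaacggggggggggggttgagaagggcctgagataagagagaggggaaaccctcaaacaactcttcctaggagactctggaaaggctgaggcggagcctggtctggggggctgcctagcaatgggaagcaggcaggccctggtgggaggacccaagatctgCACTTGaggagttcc
The Nphs1 promoter held 1 match to GNGTGGGNG, 227 bases before the start, and none to CANNTG. The Ptpro promoter held 3 matches to CANNTG, at 211, 199 and 15 bases before the start, and none to GNGTGGGNG. Among 32851 promoter windows of the same length, 12.69% held GNGTGGGNG and 66.22% held CANNTG. The homeodomain motif TAATTA, the forkhead motif GTAAACA and the Maf half-site TGCTGAC were in neither window. A match is a run of letters and says nothing of binding.

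The 4 sections held between 25957128 and 44528078 UMIs over 2401 to 2682 spots, with the highest total and the highest median per spot in normal section 1. Barcodes shared between sections are positions on the array, not shared cells. The injury genes Havcr1 and Lcn2 were higher in ischemic sections by 9.64 and 8.78 on the log2 scale. Ischemia moved much of the transcriptome: of 15305 genes tested in whole sections, 60.6% passed an adjusted p of 0.05. Spots were assigned to cortex, outer stripe, inner stripe, inner medulla or pelvis by lists of tubular and urothelial genes that hold no podocyte gene. Cortex took 45.0% and 43.3% of the spots of normal sections 1 and 2 and 39.7% and 36.5% of ischemic sections 1 and 2.

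In whole sections the 6 genes did not move as a group. Synpo rose 2.70-fold, Ptpro, Cdkn1c and Nphs1 fell, and Podxl and Wt1 did not pass the test. That is 1 of 6 higher and 3 of 6 lower at an adjusted p of 0.05, where 31.0% of all genes tested were higher and 29.7% lower. The same 1 and 3 genes had sections that did not overlap between groups, which held for 43.0% of all genes upward and 39.2% downward. The median log2 difference of the 6 genes was -0.18, against 0.04 over all genes. In whole sections, fewer podocytes, less RNA per podocyte, a smaller share of cortex and RNA from other cells cannot be told apart. Levels are UMI counts per 1000000 UMIs of the section (CPM) after edgeR's TMM scaling. Differences are ischemic minus normal on the log2 scale, from the quasi-likelihood test of edgeR with p adjusted by Benjamini-Hochberg over all genes tested.

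Nphs1, the slit diaphragm gene, was at 4.80 and 5.58 CPM in normal sections 1 and 2 and at 3.83 and 3.73 CPM in ischemic sections 1 and 2. Both ischemic sections were below both normal sections, by a log2 difference of -0.45 (SE 0.17, adjusted p = 0.0487). This call sat at the threshold: with DESeq2 the difference was -0.49 and the adjusted p 0.115, and in edgeR it was 0.0616 without normal section 2, 0.211 without ischemic section 1 and 0.243 without ischemic section 2.

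Of the apical membrane genes, Ptpro was at 6.97 and 7.64 CPM in normal sections and 4.39 and 3.91 CPM in ischemic sections. The groups did not overlap, and the log2 difference was -0.81 (SE 0.16, adjusted p = 0.00198). Podxl was at 47.2 and 53.4 CPM in normal sections and 52.9 and 54.0 CPM in ischemic sections. Its groups overlapped, with ischemic section 1 just below normal section 2, and the log2 difference was 0.09 (SE 0.10, adjusted p = 0.469).

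Synpo, the cytoskeletal gene, lies on the minus strand at chr18:60593973-60660142 (ENSMUSG00000043079). It was at 9.13 and 11.3 CPM in normal sections and 26.1 and 28.9 CPM in ischemic sections. Both ischemic sections were far above both normal sections, and the log2 difference was 1.43 (SE 0.12, adjusted p = 1.37e-05). None of the leave-out fits or other settings took this call away.

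Of the nuclear genes, Cdkn1c was at 7.70 and 11.01 CPM in normal sections and 5.56 and 5.76 CPM in ischemic sections. The ischemic sections were both lower and lay close to each other, and the log2 difference was -0.72 (SE 0.18, adjusted p = 0.00843). The other Cip/Kip genes did not follow it: Cdkn1a, which encodes p21, was higher by 3.15 (adjusted p = 9.66e-08), and Cdkn1b, which encodes p27, differed by 0.36 (adjusted p = 0.106). Wt1 was at 4.23 and 5.76 CPM in normal sections and 5.59 and 5.72 CPM in ischemic sections. Its groups overlapped, with normal section 1 apart from the other three, and the log2 difference was 0.19 (SE 0.19, adjusted p = 0.405). For Wt1 the normal sections decided the value: it was -0.02 without normal section 1, and 0.39 with an adjusted p of 0.0344 without normal section 2.

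**Figure D1:**
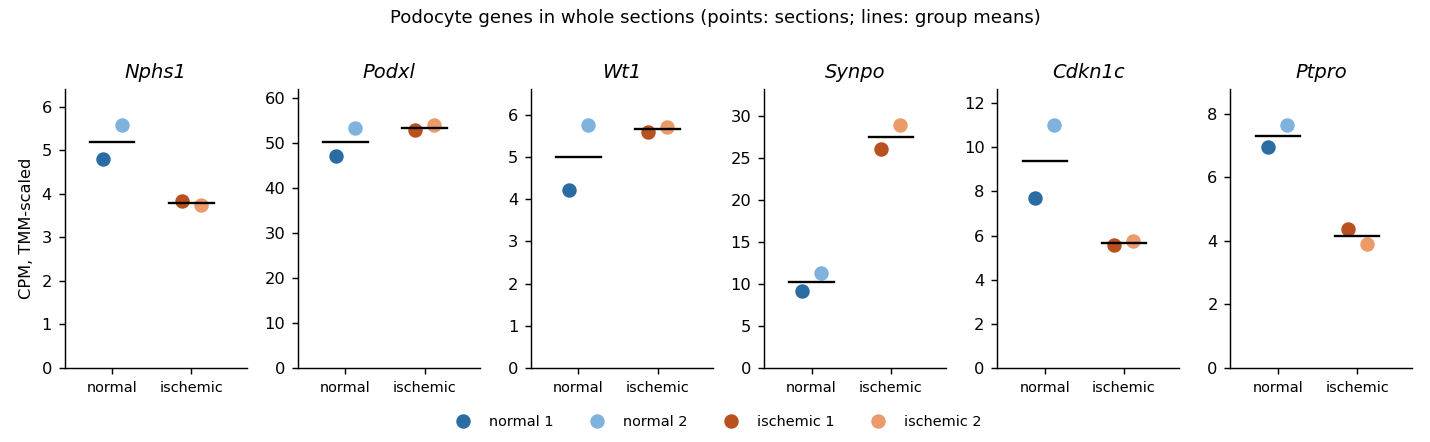
Level of each podocyte gene in each whole section, in TMM-scaled CPM on an axis that starts at 0; points are sections and lines are group means. Ischemic Synpo lies at 26.1 and 28.9 CPM and normal Synpo at 9.13 and 11.3 CPM, while Nphs1, Cdkn1c and Ptpro lie lower in both ischemic sections.

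The size of the falls depended on the scaling of libraries. Scaled by total UMIs in place of TMM, the median of all genes shifted from 0.04 to 0.31, and 5750 genes were higher and 2829 lower, against 4737 and 4542. On that scale Nphs1 differed by -0.19 (edgeR adjusted p = 0.582), Cdkn1c by -0.47 (adjusted p = 0.175) and Ptpro by -0.55 (adjusted p = 0.0956), and none of the 3 passed. Relative to the median gene, their differences were -0.50, -0.78 and -0.86 under total UMIs and -0.49, -0.76 and -0.85 under TMM.

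By the share of spots with at least 1 UMI, Synpo again stood apart from the others. Synpo was found in 9.67% and 9.02% of spots of normal sections 1 and 2 and in 28.5% and 25.0% of spots of ischemic sections 1 and 2. The exact binomial 95% intervals were 8.57% to 10.9% and 7.97% to 10.2% in normal sections, and 26.7% to 30.4% and 23.3% to 26.7% in ischemic sections; intervals here cover counting error only. After each spot was thinned to 2000 UMIs to equalise depth, the shares were 1.98% and 2.59% against 6.33% and 7.12%.

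For Ptpro the shares of spots were 6.80% and 5.48% in normal sections and 4.29% and 3.29% in ischemic sections, and for Cdkn1c 7.57% and 8.54% against 6.04% and 4.63%. Wt1 was found in 3.94% and 3.54% of normal spots and 5.75% and 4.78% of ischemic spots, and Podxl in 32.7% and 26.4% against 38.4% and 33.4%. Nphs1 was found in 5.05% and 3.95% of normal spots and 4.71% and 3.83% of ischemic spots, shares that overlapped. What differed for Nphs1 was the height of single spots: 31 and 25 normal spots held 2 or more Nphs1 UMIs, against 15 and 7 ischemic spots. The richest spot held 6 and 8 Nphs1 UMIs in normal sections, and 3 and 2 in ischemic sections. In spots assigned to the inner stripe, a layer without glomeruli, Nphs1 was found in 1.35% and 0.872% of normal and 0.932% and 1.28% of ischemic spots. Ptpro was found there in 1.89% and 1.74% against 0.699% and 0.731%. Synpo was found there in 4.32% and 3.49% of normal spots and in 35.7% and 30.0% of ischemic spots, at median depths of 13995 and 7146 UMIs against 9691 and 7754 UMIs.

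Spots that held UMIs of several of these genes were few and lay mostly in the cortex. All 6 genes met in 20 and 16 spots of normal sections 1 and 2 and in 9 and 12 spots of ischemic sections 1 and 2. Of these, 75.0% and 93.8% lay in the cortex in normal sections and 77.8% and 91.7% in ischemic sections. Spots with exactly 2 of the genes went the other way in number, from 179 and 148 to 357 and 295, and their share in the cortex was 57.5% and 61.5% in normal sections and 37.0% and 39.3% in ischemic sections.

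**Figure D2:**
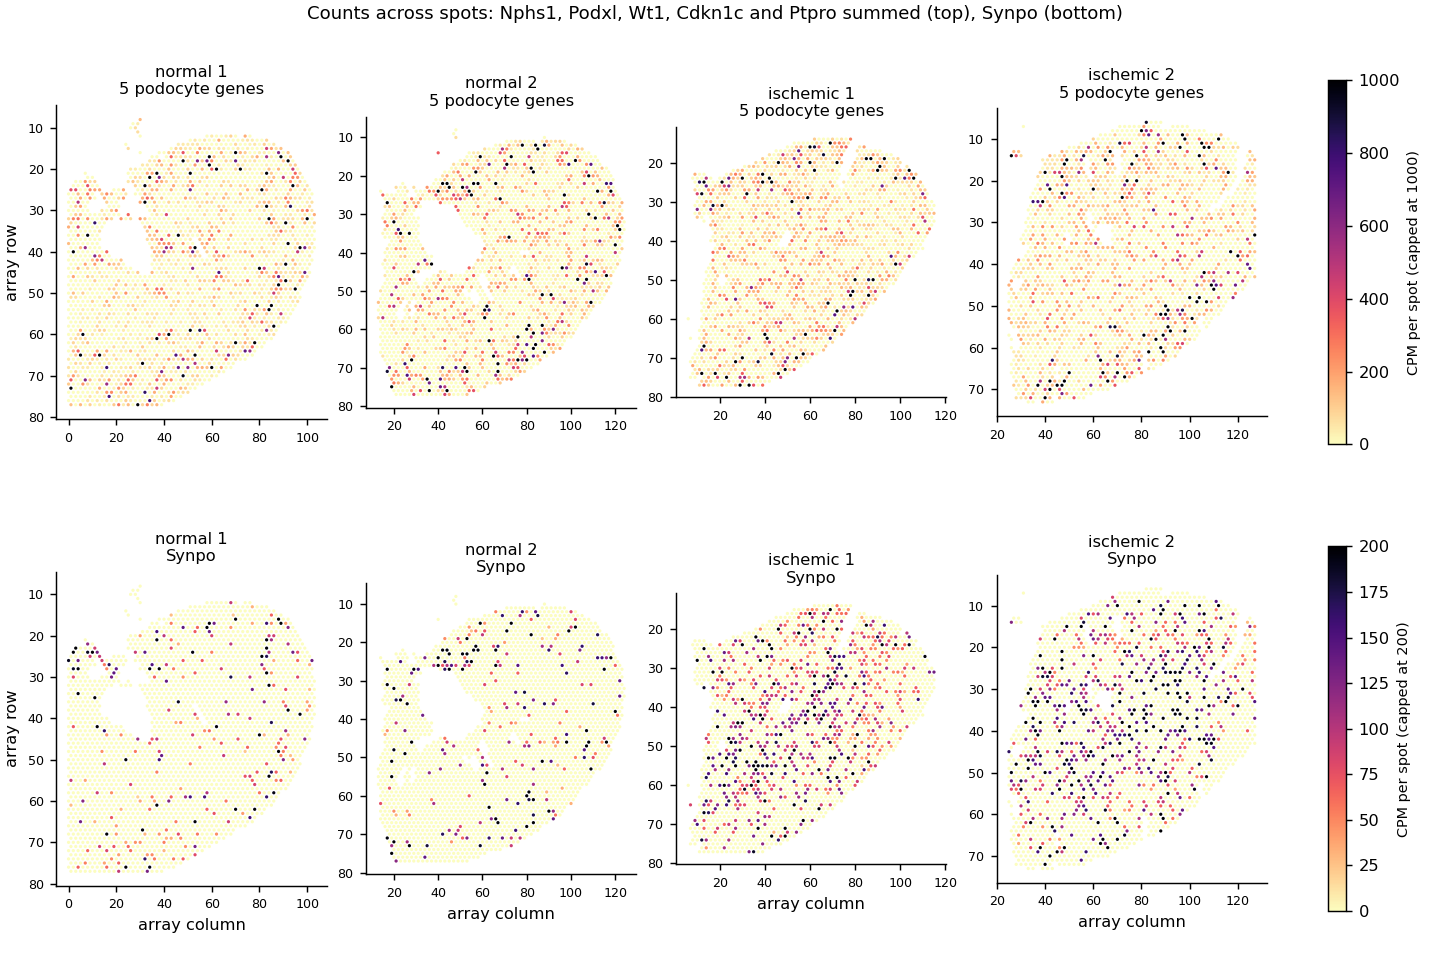
Position of each spot on the array, coloured by CPM per spot, for Nphs1, Podxl, Wt1, Cdkn1c and Ptpro summed (top, capped at 1000 CPM) and for Synpo alone (bottom, capped at 200 CPM). High spots of the 5 genes lie in a ring near the outer edge in all 4 sections, while Synpo, found in 9.67% and 9.02% of all normal spots, covers the inner parts of the ischemic sections too and was found in 28.5% and 25.0% of all their spots and in 35.7% and 30.0% of those of the inner stripe.

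The zones gave the position of these counts. In normal sections the cortex held 64.4% and 66.3% of all Synpo UMIs, and in ischemic sections 34.5% and 28.5%. The cortical share of Wt1 UMIs was 78.8% and 88.1% in normal sections and 63.7% and 68.3% in ischemic sections, and that of Nphs1 72.3% and 80.5% against 63.1% and 62.6%. Podxl had 65.2% and 70.4% of its UMIs in the cortex of normal sections and 58.3% and 54.6% in ischemic sections. Cdkn1c and Ptpro went the opposite way, from 56.7% and 55.6% to 69.3% and 73.9% for Cdkn1c, and from 70.4% and 77.3% to 81.2% and 80.4% for Ptpro. The ischemic sections also held a smaller share of cortex, and these shares are not corrected for it.

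In normal sections all 6 genes were lower in the outer medulla (both stripes) than in the cortex, the zone that holds glomeruli. The call holds for 6 of 6, where 35.9% of the 14357 genes tested were called, 18.1% lower and 17.7% higher. The log2 differences, outer medulla minus cortex, were -2.57 for Wt1 (SE 0.24), -2.00 for Nphs1 (SE 0.21), -1.74 for Ptpro (SE 0.17), -1.49 for Synpo (SE 0.13), -1.36 for Podxl (SE 0.08) and -0.88 for Cdkn1c (SE 0.15). The largest edgeR adjusted p of the 6 was 3.97e-05, for Cdkn1c.

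In ischemic sections 5 of the 6 were lower in the outer medulla and Synpo was not, where 52.8% of all genes were called, 26.2% lower and 26.6% higher. The differences were -2.91 for Ptpro (SE 0.23), -2.21 for Cdkn1c (SE 0.18), -2.20 for Wt1 (SE 0.22), -1.53 for Nphs1 (SE 0.23) and -1.24 for Podxl (SE 0.07). Synpo differed by 0.17 (SE 0.09, edgeR adjusted p = 0.110). It was 0.50 higher in the inner stripe than in the cortex (adjusted p = 0.00641) and -0.06 in the outer stripe (adjusted p = 0.641).

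The change of that zone difference with ischemia was tested in the same fit and was called for 3 of the 6 genes, 1 higher and 2 lower, where 35.2% of all genes were called, 15.9% higher and 19.3% lower. Synpo changed by 1.66 (SE 0.16, edgeR adjusted p = 1.68e-08), toward the outer medulla. Cdkn1c changed by -1.32 (SE 0.24, adjusted p = 0.000157) and Ptpro by -1.17 (SE 0.32, adjusted p = 0.00613), toward the cortex. Ptpro was not called by DESeq2 (adjusted p = 0.114) or without normal section 1 (-0.78, edgeR adjusted p = 0.103). Nphs1 differed by 0.47 (adjusted p = 0.294), Podxl by 0.12 (adjusted p = 0.437) and Wt1 by 0.36 (adjusted p = 0.473). Without normal section 1 these 3 were called too, at 0.98 (adjusted p = 0.0442), 0.29 (adjusted p = 0.0406) and 1.04 (adjusted p = 0.0485).

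Within the cortex Synpo was the only one of the 6 genes called, 1 of 6 where 49.8% of 13547 genes were called, 25.7% higher and 24.1% lower. Sections did not overlap between groups for Synpo upward and for Nphs1 and Ptpro downward, as for 39.0% and 36.3% of all genes. Synpo was at 11.9 and 17.2 CPM in normal cortex and 22.7 and 23.8 CPM in ischemic cortex. Both ischemic values lay above both normal values, by 0.70 (SE 0.15, edgeR adjusted p = 0.00161), which is less than in the outer medulla. Nphs1 was at 7.00 and 10.3 CPM in normal cortex and 6.09 and 6.75 CPM in ischemic cortex, a difference of -0.41 (SE 0.21, adjusted p = 0.116). Ptpro was at 9.89 and 13.6 CPM against 8.98 and 9.06 CPM, a difference of -0.36 (SE 0.17, adjusted p = 0.101).

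Podxl, Wt1 and Cdkn1c overlapped between the groups in the cortex, with differences of 0.14, 0.17 and -0.04 and adjusted p between 0.408 and 0.900. The 2 normal sections differed from each other there. Normal section 1 was the lower for all 6 genes, for example at 62.0 CPM of Podxl against 86.3 CPM in normal section 2, with ischemic sections at 77.7 and 85.1 CPM between them. Without normal section 1, edgeR called Nphs1 at -0.69 (adjusted p = 0.00162), Ptpro at -0.58 (adjusted p = 0.00199) and Cdkn1c at -0.37 (adjusted p = 0.0491). Without normal section 2 it called Podxl at 0.34 (adjusted p = 0.000365) and Wt1 at 0.53 (adjusted p = 0.00805), and the sign for Cdkn1c turned to 0.26. For Podxl, Wt1 and Cdkn1c in the cortex, the direction therefore rests on which normal section is used.

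The outer medulla holds no glomeruli, but its spots were assigned by tubular genes, and those next to the cortex may hold some podocytes. In the spots assigned to the outer medulla, Synpo rose 5.09-fold, Cdkn1c and Ptpro fell, and Podxl was called just under the threshold. That is 2 of 6 higher and 2 of 6 lower, where 66.1% of 14020 genes were called, 34.2% higher and 32.0% lower. Groups did not overlap for 3 genes upward (Synpo, Podxl and Wt1) and 2 downward, as for 44.1% and 39.4% of all genes. Synpo was at 4.96 and 5.74 CPM in normal and 25.6 and 28.5 CPM in ischemic outer medulla. The groups lay far apart, by 2.35 on the log2 scale (SE 0.14, edgeR adjusted p = 6.9e-09). Cdkn1c was at 5.79 and 6.98 CPM in normal and 2.46 and 2.40 CPM in ischemic outer medulla, a difference of -1.38 (SE 0.22, adjusted p = 9.73e-05). Ptpro was at 3.96 and 3.16 CPM against 1.26 and 1.20 CPM, a difference of -1.54 (SE 0.28, adjusted p = 0.000336), on 67 and 38 UMIs against 21 and 18.

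Podxl was at 29.4 and 30.5 CPM in normal and 34.6 and 36.3 CPM in ischemic outer medulla, without overlap. Its difference of 0.24 (SE 0.10, edgeR adjusted p = 0.0418) was lost with DESeq2 (adjusted p = 0.316) and in 3 of the 4 fits that left out a section. Nphs1 was at 2.48 and 1.83 CPM against 2.16 and 2.40 CPM, and differed by 0.05 (adjusted p = 0.878). Wt1 was at 1.77 and 1.25 CPM against 2.46 and 2.00 CPM. It differed by 0.53 (SE 0.31, adjusted p = 0.144) on 30 and 15 normal and 41 and 30 ischemic UMIs.

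The stripes differed for Wt1. In the inner stripe it had 3 UMIs in each normal section and 23 and 17 UMIs in ischemic sections, or 0.532 and 1.14 CPM against 5.21 and 3.87 CPM. Tested alone, the inner stripe gave a Wt1 difference of 2.23 (SE 0.55, edgeR adjusted p = 0.00961), where 43.1% of 12543 genes were called and 20.1% were higher. The outer stripe gave -0.27 (adjusted p = 0.543). In the inner medulla, Wt1 was at 0.886 and 2.13 CPM in normal and 8.00 and 6.39 CPM in ischemic sections, on 1 and 3 against 21 and 15 UMIs, and this zone was not tested. The spots of this zone differed in tissue between the groups, as given below.

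Synpo in the inner stripe was at 3.72 and 4.57 CPM in normal and 43.8 and 46.9 CPM in ischemic sections, a difference of 3.13 (SE 0.23, edgeR adjusted p = 1.57e-05). Ordered by level, ischemic Synpo was highest in the inner medulla (45.3 and 48.1 CPM) and the inner stripe, which overlapped, and was lower in the outer stripe (22.9 and 25.5 CPM) and the cortex (24.3 and 25.4 CPM), which also overlapped. The pelvis, at 27.5 and 41.4 CPM, lay between. In normal sections the inner medulla (23.9 and 12.1 CPM) and the cortex (10.4 and 17.0 CPM) overlapped and lay above both stripes, which reached at most 5.71 CPM. These zone levels are raw CPM.

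Cdkn1c in the inner stripe was at 4.08 and 12.6 CPM in normal and 2.95 and 2.05 CPM in ischemic sections, a difference of -1.86 (SE 0.49, edgeR adjusted p = 0.0131), where 23.0% of genes were lower. In the inner medulla it was at 7.98 and 26.3 CPM in normal and 2.67 and 1.28 CPM in ischemic sections. The normal sections lay far apart there, and both were above the ischemic ones. Spots called inner medulla also differed in tissue between the groups. Smooth muscle genes summed to 2064 and 472 raw CPM in normal and 396 and 318 raw CPM in ischemic sections. Adipocyte genes summed to 2922 and 649 against 334 and 272 raw CPM. Of these spots, 16.4% and 19.2% lay near a zone boundary in normal and 40.3% and 46.5% in ischemic sections. Levels of Cdkn1c, Wt1 and Synpo in this zone therefore compare unlike spots. Nphs1 and Ptpro were too low in the inner stripe to be tested, with at most 8 UMIs in a section.

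**Figure D3:**
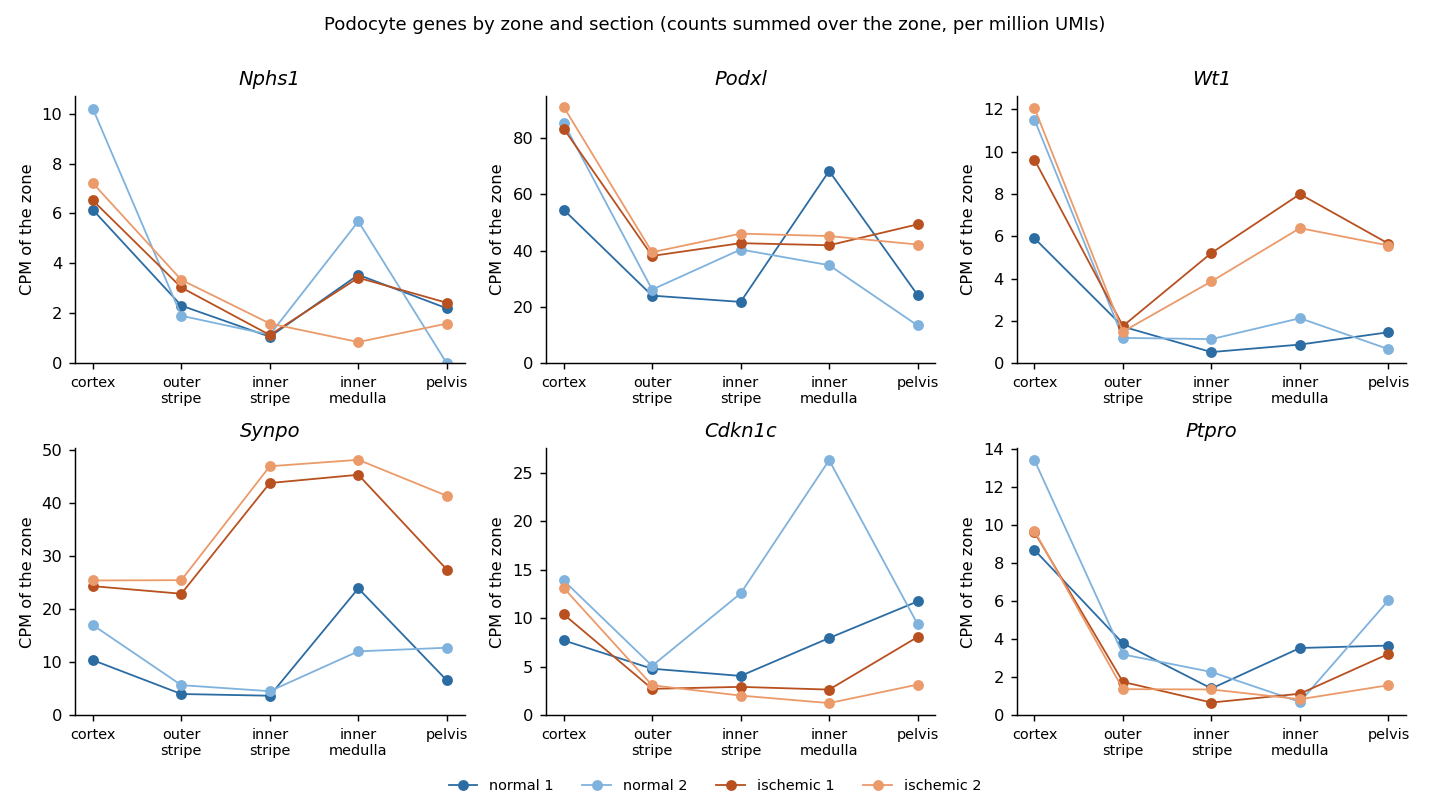
Level of each podocyte gene by zone and section, as raw CPM of the summed counts of the zone on an axis that starts at 0; each line is a section and joins zones from the cortex to the pelvis. In the inner stripe, ischemic Synpo lies at 43.8 and 46.9 CPM and normal Synpo at 3.72 and 4.57 CPM, and Cdkn1c in the inner medulla at 2.67 and 1.28 CPM against 7.98 and 26.3 CPM. Spots called inner medulla differed between the groups in smooth muscle and adipocyte genes.

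Markers of other cells moved in both directions in the outer medulla. Macrophage genes had 1 of 5 higher and 3 lower, and tubule genes 0 of 4 higher and 3 lower. Of those tested, 1 of 3 mesothelial genes was higher and 0 of 2 adipocyte genes were higher or lower. Sums of lists here are raw CPM, without TMM scaling, and on that scale the median gene was higher by 0.45 in ischemic outer medulla. The 4 smooth muscle genes summed to 41.6 and 61.6 CPM in normal and 385 and 428 CPM in ischemic outer medulla. Acta2 and Tagln, which contractile and activated stromal cells share, were higher by 2.71 and 3.12, while Myh11 and Cnn1 differed by -0.02 (adjusted p = 0.917) and -0.62 (adjusted p = 0.121). The 9 endothelial genes summed to 253 and 338 CPM against 579 and 582 CPM, with 6 of 9 higher and 1 lower. The 6 mesangial and pericyte genes summed to 62.2 and 74.4 CPM against 131 and 141 CPM. Of these genes 3 were higher, at most Pdgfrb at 1.60, and 3 were lower, Ptn at -3.17, Itga8 at -2.37 and Agtr1a at -1.52. The 4 neutrophil genes summed to 1.3 CPM in both normal sections and to 256 and 254 CPM in the ischemic sections, with 4 of 4 higher. Of 36 other podocyte genes tested there, 17 were higher and 10 lower, from Itga3 at 2.67 downward to Rhpn1 at -2.35, where 34.2% of all genes were higher and 32.0% lower. The part of these cells in the rise of Synpo was not tested.

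To compare the genes in spots likely to hold podocytes, spots were chosen by the other podocyte genes Clic3, Thsd7a, Rhpn1 and Plce1. The 5% of spots of each section with the highest CPM summed over these genes were taken as podocyte-rich spots. The normal sections gave 130 and 134 such spots, of which 66.9% and 72.4% lay in the cortex, and the ischemic sections gave 120 and 130 of them, with 57.5% and 49.2% in the cortex. A spot with 1 UMI of the choosing genes could enter. At the border of the choice, the last spot in and the first spot out had 163 and 162 CPM of the choosing genes in normal section 1, and 122.9 and 121.9 CPM in ischemic section 1. The 6 genes, which the choice did not use, were concentrated there: 67.3% and 69.8% of Wt1 UMIs fell in these spots in normal sections, and 36.3% and 34.1% in ischemic sections. For Synpo the shares were 35.3% and 33.0% in normal sections, and 10.3% and 9.30% in ischemic sections.

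In podocyte-rich spots Nphs1, Ptpro, Podxl, Wt1 and Cdkn1c fell, and Synpo, which rose in whole sections, did not pass the test. These calls depended on the rule that chose the spots, as given below. That is 5 of 6 lower by edgeR, where 28.4% of 9299 genes were called, 15.6% lower and 12.7% higher. Groups did not overlap for 6 of the 6, all downward, as for 31.6% of all genes, with 32.3% upward. Nphs1 was at 74.0 and 98.6 CPM in normal and 31.8 and 26.1 CPM in ischemic podocyte-rich spots, on 90 and 80 against 32 and 24 UMIs. Both ischemic sections were far below both normal ones, by -1.54 (SE 0.23, edgeR adjusted p = 5.25e-05). Ptpro was at 105 and 115 CPM against 54.7 and 52.2 CPM, a difference of -1.03 (SE 0.19, adjusted p = 0.000333). The replicates of Ptpro lay close together within each group. Podxl was at 503 and 692 CPM against 361 and 353 CPM, a difference of -0.74 (SE 0.19, adjusted p = 0.00520). Its adjusted p was 0.0738 without ischemic section 1 and 0.0589 without ischemic section 2.

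Cdkn1c was at 95.4 and 127 CPM in normal and 62.7 and 74.0 CPM in ischemic podocyte-rich spots, a difference of -0.68 (SE 0.20, edgeR adjusted p = 0.0139). DESeq2 did not call it (adjusted p = 0.152), nor did edgeR without normal section 2 (adjusted p = 0.0781), without ischemic section 1 (adjusted p = 0.125) or with total UMI scaling (adjusted p = 0.0895). Wt1 was at 86.3 and 136.9 CPM against 68.6 and 61.0 CPM, a difference of -0.75 (SE 0.22, adjusted p = 0.0148). Its normal sections lay far apart, and it was -0.42 (adjusted p = 0.153) without normal section 2 and -1.07 (adjusted p = 4.21e-05) without normal section 1. Wt1 was not called by DESeq2 (adjusted p = 0.120), without ischemic section 2 (edgeR adjusted p = 0.0624) or with total UMI scaling (edgeR adjusted p = 0.0896). Synpo was at 97.9 and 127 CPM against 90.5 and 83.8 CPM, a difference of -0.35 (SE 0.19, adjusted p = 0.186). In all other spots, raw Synpo was at 5.06 and 7.78 CPM in normal sections and 26.4 and 30.0 CPM in ischemic sections.

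The choosing genes themselves were lower in sum in ischemic than in normal sections. In raw CPM, without TMM scaling, whole sections were at 27.4 and 36.8 against 17.6 and 19.3. The chosen spots were at 339 and 535 raw CPM against 230 and 248 raw CPM, so they need not hold the same amount of podocyte. These choosing genes did not move alike, since Plce1 was higher by 1.34 in whole sections (edgeR adjusted p = 0.000773) while Clic3 and Rhpn1 were lower. In the outer medulla Plce1 differed by 2.14, and Clic3 and Rhpn1 by -2.05 and -2.35. Which choosing gene brought each spot in was not tested, and chosen spots outside the cortex need not hold podocytes. The rule for choosing spots moved the results. With spots of at least 2 UMIs of the choosing genes, which took 238 and 176 normal and 76 and 68 ischemic spots, Nphs1 differed by -0.43 (edgeR adjusted p = 0.236), Ptpro by 0.03 (adjusted p = 0.945), Podxl by 0.22 (adjusted p = 0.401), Wt1 by 0.46 (adjusted p = 0.127) and Cdkn1c by 0.29 (adjusted p = 0.315). Synpo was then higher by 0.57 (adjusted p = 0.0345). With the top 5% by Podxl and Wt1, a choice added after seeing the data, Nphs1 fell by 0.84 (adjusted p = 0.00409), Ptpro differed by -0.36 (adjusted p = 0.167), Cdkn1c by -0.18 (adjusted p = 0.574) and Synpo by 0.13 (adjusted p = 0.676). Of the spots chosen by Podxl and Wt1, the cortex held 72.3% and 79.9% without ischemia and 75.0% and 77.7% after it. Both choices shared 77 spots in each normal section, and 42 and 53 spots in ischemic sections 1 and 2. Nphs1 was below 0 under each of the 6 rules shown.

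**Figure D4:**
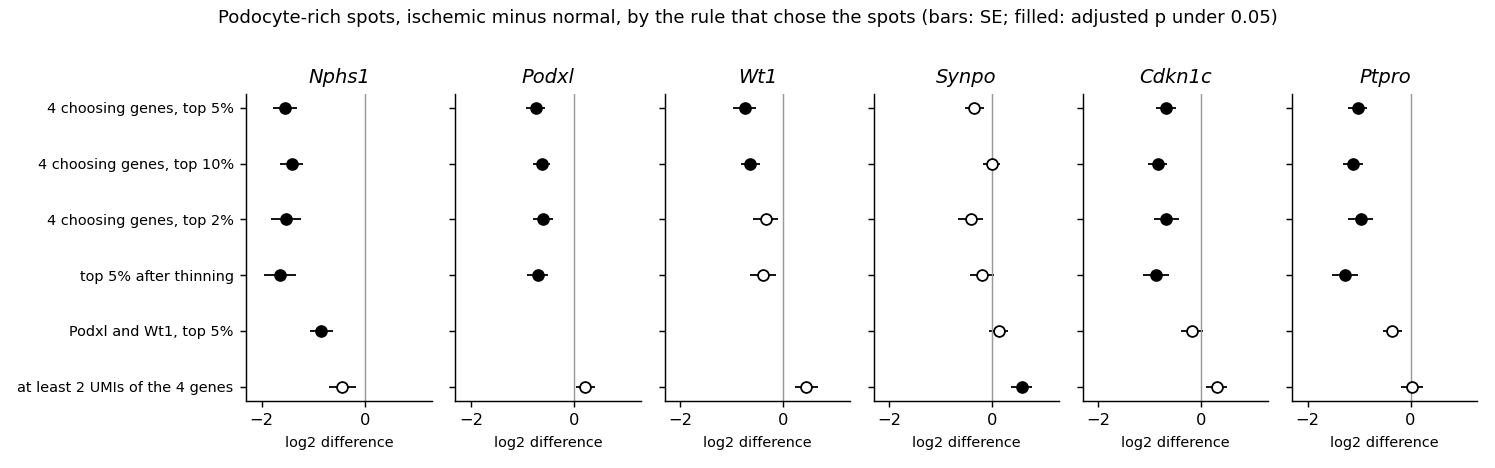
Log2 difference, ischemic minus normal, of each podocyte gene in podocyte-rich spots under 6 rules for choosing the spots; bars are standard errors and filled points have an edgeR adjusted p under 0.05. Nphs1 lies at -1.54 with the 4 choosing genes, -1.65 after thinning, -0.84 with Podxl and Wt1 and -0.43 with spots of at least 2 UMIs, and Synpo lies at -0.35 with the 4 choosing genes and 0.57 with spots of at least 2 UMIs.

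Across spots the 6 genes were found together, less so in ischemic sections. The mean Pearson correlation of their 15 pairs, on log2 counts per 10000 UMIs plus 1, was 0.441 and 0.391 without ischemia and 0.309 and 0.299 after it. These are descriptions over the spots of a section, which share a library and differ in depth. In the cortex the means were 0.495 and 0.466 against 0.406 and 0.405, and outside it 0.358 and 0.200 against 0.162 and 0.0966. The 5 pairs with Synpo had the lowest mean outside the cortex of ischemic sections, 0.0601 and 0.0230, against 0.267 and 0.140 in normal sections. Within the cortex their means were 0.457 and 0.411 without ischemia and 0.375 and 0.364 after it. Over all spots the pair of Cdkn1c and Ptpro was at 0.415 and 0.368 without ischemia and 0.445 and 0.448 after it, and in the cortex it was at 0.496 and 0.484 against 0.461 and 0.483.

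**Figure D5:**
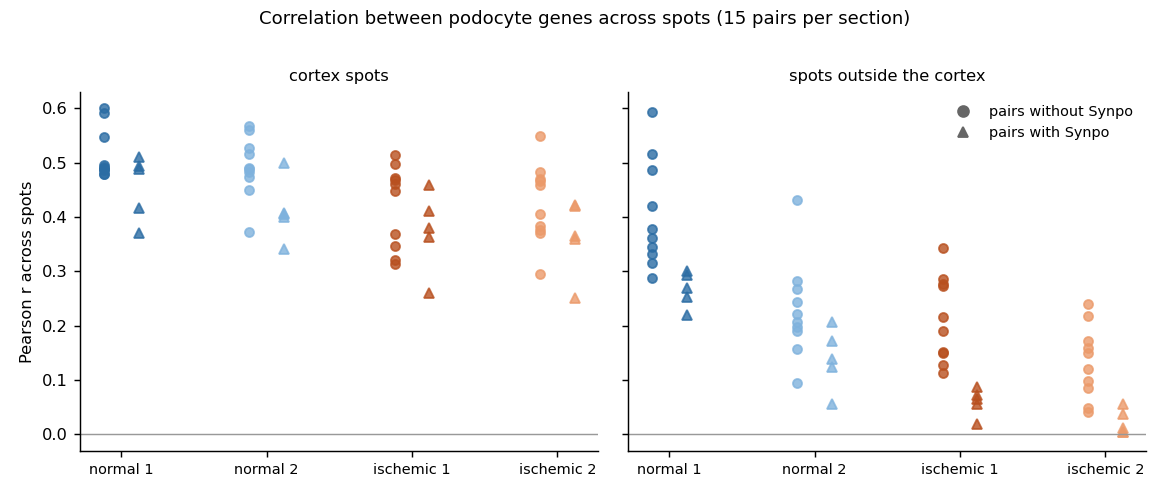
Pearson correlation across spots between podocyte genes, 15 pairs per section, in cortex spots (left) and in spots outside the cortex (right); triangles are pairs with Synpo and circles are the other pairs. Outside the cortex the pairs with Synpo average 0.0601 and 0.0230 in the ischemic sections, against 0.375 and 0.364 in the cortex of those sections.

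The 6 genes were summed as UMIs, so Podxl weighed most, with 1742 and 1473 UMIs in normal and 1795 and 1548 in ischemic whole sections. Synpo came next, with 337 and 312 against 886 and 828. Of 13742 genes compared, Clic3, a chloride intracellular channel gene, had the pattern most like this sum. Its mean correlation over the 4 sections was 0.420, from 0.590 and 0.524 without ischemia to 0.305 and 0.260 after it. Rab3b (0.412), Myom2 (0.396) and Aplp1 (0.380) came next, then Plat (0.351), Fgfbp1 (0.349), Ddn (0.348), Sfrp2 (0.344), Sema3g (0.336) and Rhpn1 (0.329). Fgfbp1 was the only one of these 10 with higher values in both ischemic sections, 0.419 and 0.382, than in both normal sections, 0.309 and 0.286. For the genes taken alone, those most like Nphs1 were Myom2, Rab3b and Clic3, those most like Podxl and Wt1 were Clic3, Rab3b and Myom2, and those most like Ptpro were Rab3b, Clic3 and Myom2. For Cdkn1c they were Myom2, Clic3 and Rab3b, and for Synpo Clic3, Sema3g and Rab3b, at 0.259, 0.240 and 0.240.

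Other podocyte genes were split in the same comparisons, many of them also expressed outside podocytes. Of 39 such genes tested in whole sections, 16 were higher and 10 lower by edgeR, where 31.0% of all genes were higher and 29.7% lower, with a median of 0.25 against 0.04 over all genes. In podocyte-rich spots, where the choosing genes were left out, 8 of 30 were higher and 5 lower, where 12.7% of all genes were higher and 15.6% lower, with a median of -0.30 against 0.01. Among slit diaphragm genes in whole sections, 6 of 8 were higher and 1 lower. Kirrel, a nephrin-like adhesion protein, was highest at 1.68 (adjusted p = 0.000862), while Robo2, an axon guidance receptor that binds nephrin through an adaptor, was lowest at -0.92 (adjusted p = 0.00436).

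For the next lists too, 31.0% of all genes were higher and 29.7% lower in whole sections. The cytoskeletal genes had 5 of 8 higher and 2 lower in whole sections, from Myh9, a nonmuscle myosin heavy chain, at 2.19 (edgeR adjusted p = 4.38e-06) to Rhpn1, which encodes rhophilin, at -1.66 (adjusted p = 2.74e-06). In podocyte-rich spots Myh9 was higher by 1.54 (adjusted p = 8.65e-06), where Synpo was not called. Surface and adhesion genes had 3 of 9 higher and 3 lower, from Itga3, an integrin alpha chain, at 1.99 (adjusted p = 1.65e-06) to Clic3 at -2.10 (adjusted p = 9.01e-06). Basement membrane genes had 2 of 6 higher and 2 lower, from Agrn, which encodes agrin, at 0.96 (adjusted p = 0.000125) to Col4a4, a collagen IV chain, at -0.99 (adjusted p = 2.41e-05). Both secreted factors were lower, Bmp7 at -0.76 (adjusted p = 0.000229) and Vegfa at -0.46 (adjusted p = 0.0140). Of the 6 transcription factors beside Wt1, 0 passed in edgeR and 0 in DESeq2, and 1, Foxc2, had an unadjusted p under 0.05 in edgeR and 0 did in DESeq2. Their median was 0.11.

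Other marker lists were also counted in whole sections, where 31.0% of all genes were higher and 29.7% lower. They gave 4 of 9 endothelial genes higher and 1 lower, 2 of 6 mesangial and pericyte genes higher and 3 lower, and 2 of 4 smooth muscle genes higher and 2 lower. Neutrophil genes were higher in 4 of 4, from a sum of 1.39 and 2.06 raw CPM to 176 raw CPM in both ischemic sections. Macrophage genes had 1 of 5 higher and 3 lower, and 3 of 4 tubule genes, 4 of 4 adipocyte genes and 1 of 3 mesothelial genes tested were lower. Of the mesothelial genes, whose cells also express Wt1, Lrrn4 was at 0 counts in all 4 sections, and Krt19, Upk3b and Msln were detected in all 4. Krt19 was at 19.5 and 39.8 CPM in normal and 27.5 and 37.8 CPM in ischemic sections. Upk3b was at 6.5 and 13.1 against 2.5 and 3.8 CPM, and Msln at 2.8 and 4.8 against 3.4 and 5.7 CPM.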

How the data were processed

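The authors ran Space Ranger 1.3.0 (per the file headers) and deposited 1 matrix per section of raw UMI counts, by gene and by spot under tissue, without normalization. The build was mm10 per the labels, with an annotation release not given in the sources used here. Counts were summed over the spots of a section, zone or chosen set and tested with edgeR 4.0.16 in R 4.3.3 (quasi-likelihood test after TMM and filterByExpr, with p adjusted by Benjamini-Hochberg over all genes tested at a threshold of 0.05). Outer medulla and cortex were compared in 1 model with the section as block. Groups came from the sample labels. The 6 genes, the gene lists and the tests were chosen with earlier results of these data known.

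Zones were called from the CPM of marker lists, pooled over a spot and its up to 6 neighbours, as the mean log2(CPM + 1) of a list, standardised per section. The cortex list was Slc5a2, Slc5a12, Slc34a1, Slc22a6, Slc22a8 and Slc12a3. Some zone genes changed with ischemia, in whole sections Slc34a1 by -3.62 and Umod, of the inner stripe list, by -0.51. Called without neighbours, 82.6% and 84.0% of normal and 80.6% and 84.6% of ischemic cortex spots kept their zone. Shares were 71.8% and 74.5% against 61.2% and 62.0% in the outer stripe, 57.8% and 64.2% against 58.0% and 59.6% in the inner stripe, and 66.9% and 62.7% against 28.6% and 28.7% in the pelvis. One podocyte gene is not reported here: it was left out of the gene lists and correlations, and podocyte-rich spots, first set to be chosen with it, were chosen by the other 4 genes. This change was made after results were known, and it raised the number of the 6 genes called lower in these spots and lowered the share of the ischemic spots that lay in the cortex. Podocyte-rich spots and correlations used spots with at least 500 UMIs. Genes compared by correlation had at least 100 counts in at least 100 spots. A count of 1 UMI is the limit of detection in a spot, and depth per section bounds the precision of low genes such as Wt1 and Nphs1.

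Genes named are the 6 genes, the Cip/Kip genes, Havcr1, Lcn2, the 10 genes most correlated with the summed 6 and the top 3 for each, and the largest called change in each direction of each podocyte list. Pdgfrb, Ptn, Itga8, Agtr1a, Acta2, Tagln, Myh11, Cnn1, Lrrn4, Krt19, Upk3b, Msln, Slc34a1, Umod, Foxc2 and Myh9 in podocyte-rich spots were named after their values were seen. Alternatives were DESeq2 1.42.0, other scalings, no filter on low counts, other zone and spot rules, a replicate block and leaving out each section. On simulated counts with 200 genes changed by 2-fold, edgeR recovered 158 with 7 false calls in whole sections (15305 genes), 163 with 5 in the outer medulla (14020 genes) and 85 with 1 in podocyte-rich spots (9299 genes). DESeq2 recovered 145, 142 and 46 there. The simulated counts took their spread from the fit to these sections, and 60.6% of genes were called in the real whole sections. These rates therefore need not hold for the calls given here. Replicate sections differed beyond sampling noise and were counted separately. Promoters were taken from RefSeq and coordinates from GENCODE vM21, both on GRCm38.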

Additional observations from a re-analysis of the deposited data

Results flagged for a closer look

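The difference between outer medulla and cortex changed with ischemia for 3 of the 6 podocyte genes, by a test of the change itself in edgeR's model with the section as block, where 35.2% of all genes were called, 15.9% higher and 19.3% lower. Synpo changed by 1.66 on the log2 scale (SE 0.16, adjusted p = 1.68e-08), from a difference of -1.49 in normal sections to 0.17 in ischemic sections. Cdkn1c changed by -1.32 (SE 0.24, adjusted p = 0.000157), from -0.88 to -2.21, and Ptpro by -1.17 (SE 0.32, adjusted p = 0.00613), from -1.74 to -2.91. The calls for Synpo and Cdkn1c held without each section in turn and with DESeq2. That for Ptpro was lost without normal section 1 (-0.78, edgeR adjusted p = 0.103), and Ptpro rests on 21 and 18 UMIs in the ischemic outer medulla.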

How the results depend on the processing

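The rise of Synpo in whole sections, cortex and outer medulla kept its direction and call under all alternatives run, as did the falls of Cdkn1c and Ptpro in the outer medulla and the lower level of all 6 genes in normal outer medulla than in cortex; Ptpro and Nphs1 in the inner stripe alone gave no value. In whole sections DESeq2 gave Nphs1 -0.49, and total UMI scaling gave Nphs1 -0.19, Cdkn1c -0.47 and Ptpro -0.55, none of them called. Genes called moved from 5152 to 2260 by DESeq2 between the zones of normal sections, from 7574 to 4007 between those of ischemic sections, from 5049 to 2187 for their change and from 2639 to 1280 in podocyte-rich spots. The inner stripe alone gave 5404 (9272 for the outer medulla) and 2248 for the change, and the top 10% and 2% of spots gave 4587 and 1309. Signs turned, without a call unless stated, for Cdkn1c in the cortex (0.15 by total UMIs, 0.016 without spots near a zone boundary), Nphs1 in the outer medulla (-0.28 with zones called without neighbours), Wt1 in the outer stripe (-0.27) and Synpo in the ischemic outer stripe against cortex (-0.059). For the change between zones they turned for Podxl (-0.046 without neighbours) and Wt1 (-0.17 without boundary spots, -0.45 in the outer stripe). In podocyte-rich spots, at least 2 UMIs turned Podxl (0.22), Cdkn1c (0.29), Wt1 (0.46), Ptpro (0.027) and Synpo (0.57, called), and Synpo also turned with Podxl and Wt1 (0.13). A planned choice of spots by a single gene was not run. The cause was not tested.

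Leaving out each section in turn gave -0.55 to -0.37 for Nphs1 and -0.017 to 0.39 for Wt1 in whole sections. In the cortex it gave -0.084 to 0.34 for Podxl, -0.22 to 0.53 for Wt1 and -0.37 to 0.26 for Cdkn1c, and in the outer medulla -0.17 to 0.32 for Nphs1. For the change between zones it gave -0.011 to 0.98 for Nphs1, -0.13 to 0.29 for Podxl and -0.25 to 1.04 for Wt1, and in podocyte-rich spots 1806 to 2642 genes were called, the lowest without ischemic section 2. There, Podxl was not called without ischemic section 1 (-0.76) or 2 (-0.70), Wt1 without normal section 2 (-0.42) or ischemic section 2 (-0.65), and Cdkn1c without normal section 2 (-0.50) or ischemic section 1 (-0.57). A lone section was assumed to vary like the other group.

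The labels number sections 1 and 2 in both groups and do not say that a number is shared. Sections of the same number deviated together with a correlation of 0.258 over 10721 genes, from 2 pairs. With the replicate number as a block, 10089 genes were called in whole sections, Nphs1 stayed at -0.45, and no call of the 6 genes changed. Without the section as replicate block, 3252 genes were called between the zones of normal sections and 2863 for the change between zones.

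Depth limits Wt1, Nphs1 and Ptpro outside the cortex, where each zone of a section held at most 59 UMIs of each.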
